A study of Mus musculus with 8 samples.

Results

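The 9 genes described here belong to the B lineage of the intestinal wall and to the path by which its main antibody, IgA, reaches the gut lumen. Cd79a, Cd79b and Ms4a1 are B cell genes, taken here to stand for the B cells of lymphoid follicles. Igha, Igkc, Jchain and Mzb1 are taken here to stand for plasma cells, although B cells make Igkc and Mzb1 too. Ighm is made by B cells and by IgM plasma cells, and Pigr is the epithelial transporter of IgA. They were chosen by symbol from the 52143 gene rows of the table, and each symbol stood on 1 row. RNA was sequenced from the distal colon of 4 Control and 4 SiglecXII samples, taken on day 12, 7 days after the last of 5 daily tamoxifen injections that began when the mice were 8 weeks old. The mice were female.

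SiglecXII mice carried 1 floxed knockin allele of human SIGLEC12 at ROSA26 and the transgene Villin1-Cre-ERT, and Control mice were littermates with Villin1-Cre-ERT only. Both groups therefore carried the Cre and received the drug. The Villin1 promoter restricts the recombinase to the epithelium of the small and large intestine, so the allele was meant to be switched on in the cells that make Pigr and not in B lineage cells. No row of the table stands for SIGLEC12, EGFP or Cre, and the group labels thus could not be tested on the knockin itself. The design text speaks of 3 mice per condition whereas 4 samples per group are listed, and the Methods mention technical replicate libraries. Each sample was counted as 1 replicate, and p-values then measure only the spread between these samples, which may be technical.

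Intestinal B cells meet antigen in lymphoid follicles, switch there from IgM to IgA, and return to the lamina propria as plasma cells. Plasma cells of the gut secrete IgA as dimers joined by the J chain, and the polymeric immunoglobulin receptor encoded by Pigr takes these dimers up at the base of epithelial cells and releases them at the luminal face with a piece of itself attached. The colon holds follicles as scattered patches, and a piece of bulk tissue can include one or miss it. In bulk tissue, fewer cells of a type and less RNA per cell cannot be told apart.

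Values were deposited as log2(TPM + 1), and TPM corrects each gene for transcript length and gives every sample the same total, so that levels may be set side by side between genes. TPM keeps no record of the number of reads, and the depth behind each value is unknown. Between 12748 and 13715 genes per sample were at a TPM of at least 1. The median gene was 0.21 log2 units lower in SiglecXII than in Control samples and lowest in SiglecXII 3 and 4, at -0.23 and -0.37 against the mean of all samples. The summed level of 10 markers of colon epithelium was 11349 to 15926 TPM and that of 6 markers of smooth muscle 303 to 1003 TPM, so each piece held mucosa and muscle. No sample repeated another, and among the controls Control 1 was the highest and Control 2 the lowest in Igha, Igkc and Jchain, which is why values without each of them are given.

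Of the 9 genes, 3 (Pigr, Jchain and Cd79a) matched the RefSeq promoters of GRCm38.p6, which run from 250 bases before to 50 bases after a gene's start. Those of Pigr and Jchain are shown because these genes stand at the epithelial and the plasma cell end of IgA transport. Capitals mark matches on either strand to 3 motifs known from promoters of this kind. They are the octamer core ATGCAAA, the E-box CACGTG of the type bound by USF factors, and the E-box CAGGTG of the type bound by E2A, and the 2 E-boxes do not overlap each other.
Pigr, chr1:130826434-130826733, plus strand: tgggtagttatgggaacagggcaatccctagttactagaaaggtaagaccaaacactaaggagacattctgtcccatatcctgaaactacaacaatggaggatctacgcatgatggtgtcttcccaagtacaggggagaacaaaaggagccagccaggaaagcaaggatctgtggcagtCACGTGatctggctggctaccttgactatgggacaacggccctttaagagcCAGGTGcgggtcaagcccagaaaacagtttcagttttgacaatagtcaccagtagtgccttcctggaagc
Jchain, chr5:88527848-88528147, minus strand: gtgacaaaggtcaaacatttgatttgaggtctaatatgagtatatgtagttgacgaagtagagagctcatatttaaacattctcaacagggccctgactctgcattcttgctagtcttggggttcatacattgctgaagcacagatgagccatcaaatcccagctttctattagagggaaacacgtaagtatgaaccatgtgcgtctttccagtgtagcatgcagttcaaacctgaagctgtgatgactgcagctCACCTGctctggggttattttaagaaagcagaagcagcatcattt
The Pigr window held CACGTG from 71 bases upstream of the start and CAGGTG from 20 bases upstream. The Jchain window held CAGGTG on the opposite strand, where it reads CACCTG, at base 6 counted from the start as base 1. Neither held the octamer core. Of 32851 promoters of the same length, 7.15% held CACGTG, 20.2% held CAGGTG and 4.63% held the octamer core, so the shared E-box is a common one.

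Among the plasma cell genes, Igha, Igkc and Jchain were higher in 3 of the 4 controls than in any SiglecXII sample, and the exception was Control 2. Igha (ENSMUSG00000095079), at chr12:113254830-113260236 on the minus strand of GRCm38 by GENCODE M21, from which all gene positions here are taken, encodes the constant region of the IgA heavy chain. Its level was 29.7, 0.640, 9.38 and 12.7 TPM in Control 1 to 4 and 1.27, 1.28, 0.401 and 1.32 TPM in SiglecXII 1 to 4. The groups overlapped through Control 2 alone, which lay below 3 of the SiglecXII samples. Means were 3.20 ± 1.79 log2(TPM + 1) in Control and 1.02 ± 0.35 in SiglecXII samples (SD, n = 4 each), and the log2 difference (SiglecXII minus Control) was -2.19 with a standard error of 0.751 and a 95% interval from -3.88 to -0.49. It did not pass the test (adjusted p = 0.515 by limma over 13164 genes, unadjusted p = 0.0173). Of all genes tested, 0.038% (5 genes) passed at an adjusted p of 0.05.

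Igkc (ENSMUSG00000076609, chr6:70726435-70726966, plus strand), the constant region of the kappa light chain, was the highest of the 9 genes after Pigr in every sample. Its level was 73.9, 2.01, 16.8 and 33.0 TPM in Control 1 to 4 and 5.29, 2.96, 1.17 and 3.92 TPM in SiglecXII 1 to 4. The order of the controls was that of Igha, and Control 2 again lay among the SiglecXII samples. The log2 difference was -2.25 (standard error 0.854, 95% interval from -4.18 to -0.32, adjusted p = 0.515 by limma).

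Jchain (ENSMUSG00000067149, chr5:88519809-88527891, minus strand) encodes the J chain, which joins IgA into dimers. Its level was 11.9, 0.587, 2.35 and 4.31 TPM in Control 1 to 4 and 0.773, 1.24, 0.507 and 1.52 TPM in SiglecXII 1 to 4. Over the 8 samples its order was exactly that of Igha, with Control 1 highest and SiglecXII 3 lowest. The log2 difference of Jchain was -1.15 (standard error 0.545, 95% interval from -2.38 to 0.08, adjusted p = 0.515 by limma). Igha was 1.09 to 4.0 times Jchain in Control samples and 0.791 to 1.64 times in SiglecXII samples on the TPM scale, so the ratios overlapped.

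Mzb1 (ENSMUSG00000024353), a chaperone of the endoplasmic reticulum that assists antibody secretion, was below a TPM of 1 in every sample and was not tested with the other genes. Its level was 0.601, 0.196, 0.157 and 0.275 TPM in Control 1 to 4 and 0.0745, 0, 0.0520 and 0.258 TPM in SiglecXII 1 to 4. Control 1 was again highest. Cut into windows of 31 bases, 55.1% of the Mzb1 transcripts is shared with SPATA24, so its reads could have been divided between both genes. With no filter on low values, over 31352 rows, its log2 difference was -0.25 (adjusted p = 0.682 by limma).

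Igkc and Igha stood at ranks 14 and 16 from the most lowered of the 13164 genes tested, and Jchain at rank 156. A log2 difference of -2 or lower was seen in 0.16% of all genes (21 genes). At an unadjusted p of 0.05, 7.67% of all genes were lower in SiglecXII samples and 1.19% were higher (8.87% in all), and 2 of the 5 B lineage and transport genes that were tested, Igha and Igkc, were lower at that limit. None of the 5 passed at an adjusted p of 0.05 by limma. Since 78.1% of all genes had a difference below 0 and the median of all differences was -0.15, the sign alone sets none of the 5 apart. After each sample was centred on its median gene, the difference was -1.97 for Igha, -2.04 for Igkc and -0.93 for Jchain.

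The size of these differences rested on single controls. Without Control 2, the difference of Igha was -3.02 with a standard error of 0.374, and its adjusted p of 0.0773 by limma was still above 0.05. The differences of Igkc and Jchain without Control 2 were -3.14 and -1.63 (adjusted p = 0.323 and 0.730 by limma). Without Control 1 the log2 difference was -1.61 for Igha, -1.60 for Igkc and -0.63 for Jchain, and the adjusted p from limma was 0.447 or 0.448 for the 3 genes. Leaving out either control moved all 3 differences and changed no call.

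**Figure D1:**
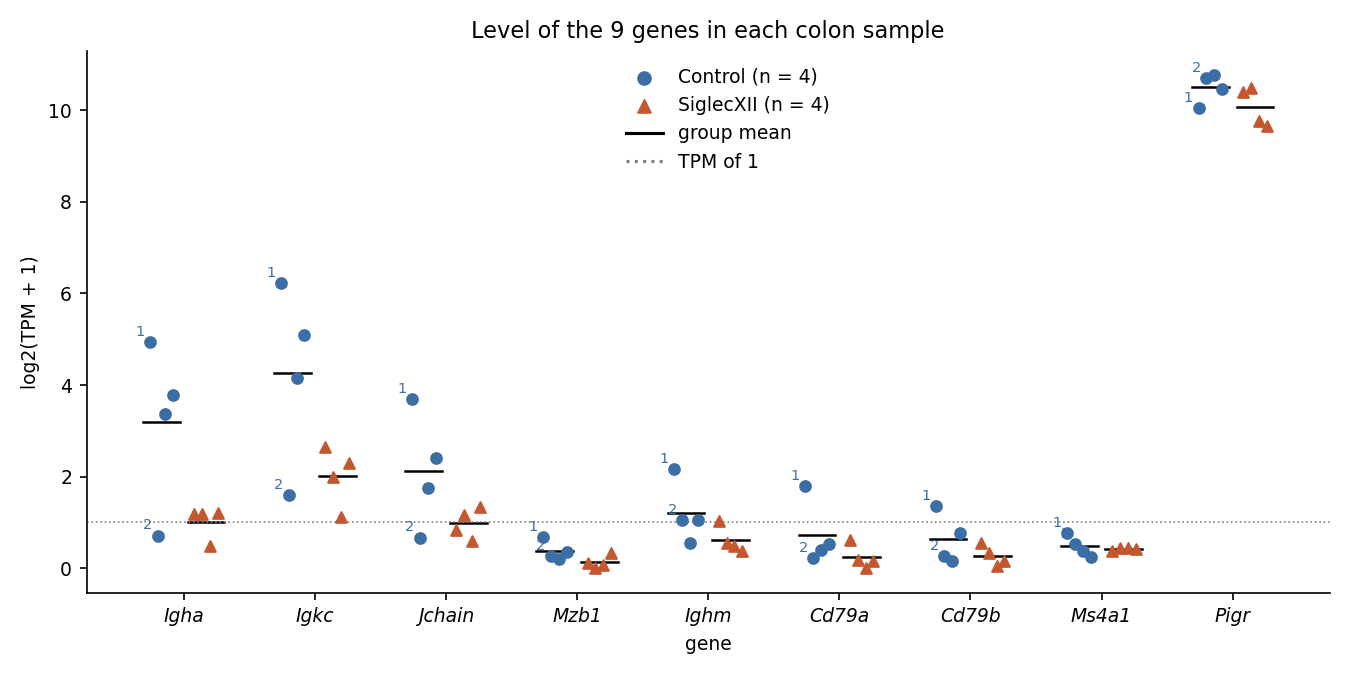
Level of each of the 9 genes, on the vertical axis as log2(TPM + 1), in the 4 Control samples (blue circles, of which 1 and 2 are numbered) and the 4 SiglecXII samples (orange triangles), with the group mean as a black bar and a TPM of 1 as a dotted line. Igha, Igkc and Jchain are high in 3 controls and low in Control 2 and all SiglecXII samples, Cd79a, Cd79b and Ms4a1 lie near or below the dotted line, and Pigr lies near 10 in every sample.

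**Figure D2:**
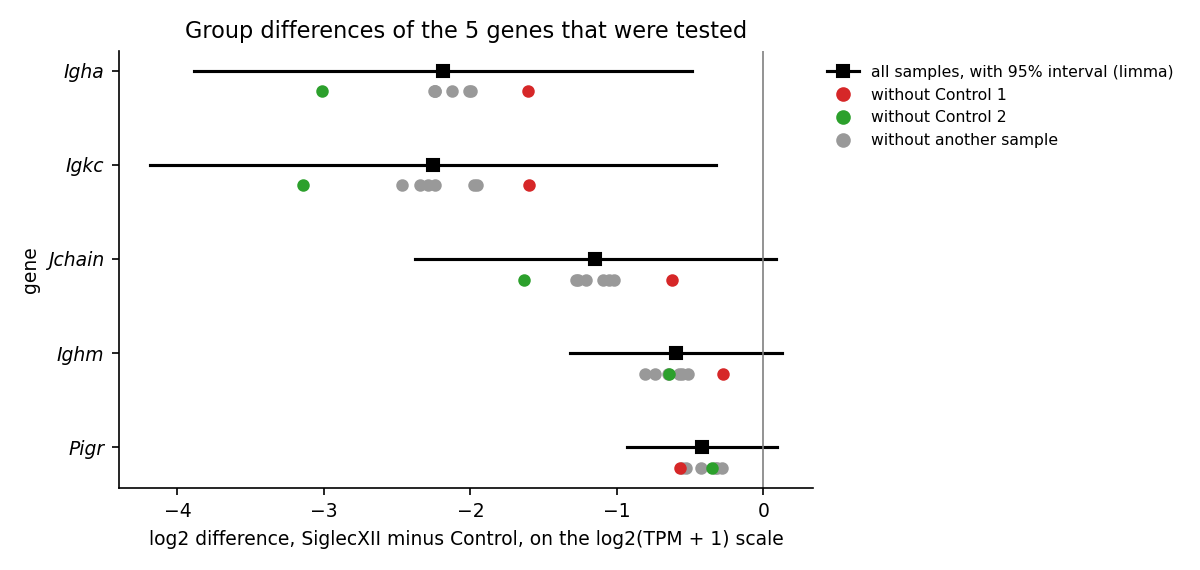
Log2 difference (SiglecXII minus Control) of the 5 genes tested, as black squares with 95% intervals from limma, and below each the same difference with 1 sample left out. The value without Control 2 (green) is the lowest for Igha, Igkc and Jchain, and the value without Control 1 (red) is the nearest to 0 for Igha, Igkc, Jchain and Ighm.

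The B cell genes of the follicle were at very low levels, so the data hold little on them. Cd79a (ENSMUSG00000003379, chr7:24897381-24902197, plus strand) encodes a signaling chain of the B cell receptor. Its level was 2.47, 0.159, 0.313 and 0.445 TPM in Control 1 to 4 and 0.529, 0.140, 0 and 0.113 TPM in SiglecXII 1 to 4; Gm32220 shares 12.2% of its windows. Only Control 1 was above a TPM of 1.

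Cd79b (ENSMUSG00000040592, chr11:106311341-106314762, minus strand) encodes the partner chain of Cd79a. Its level was 1.55, 0.203, 0.109 and 0.712 TPM in Control 1 to 4 and 0.467, 0.250, 0.0361 and 0.108 TPM in SiglecXII 1 to 4. The same sample, Control 1, was the only one above a TPM of 1, and the groups overlapped.

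Ms4a1 (ENSMUSG00000024673, chr19:11249675-11266241, minus strand) encodes CD20, a surface protein that B cells carry and plasma cells lack. Its level was 0.705, 0.439, 0.297 and 0.176 TPM in Control 1 to 4 and 0.297, 0.359, 0.349 and 0.331 TPM in SiglecXII 1 to 4. The SiglecXII samples fell within the range of the controls, and the lowest sample was Control 4, not Control 2. With no filter on low values the log2 differences were -0.49 for Cd79a, -0.37 for Cd79b and -0.06 for Ms4a1 (adjusted p = 0.691, 0.691 and 0.824 by limma), and in that fit 0.00957% of rows passed.

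Ighm (ENSMUSG00000076617) lies at chr12:113418558-113422730 on the minus strand, in the same heavy chain locus as Igha, and encodes the constant region of the IgM heavy chain. Its level was 3.47, 1.08, 0.475 and 1.07 TPM in Control 1 to 4 and 1.05, 0.463, 0.400 and 0.296 TPM in SiglecXII 1 to 4. Unlike for Igha, the lowest control was Control 3, and Control 2 and Control 4 were at about the level of SiglecXII 1. The log2 difference was -0.60 (standard error 0.319, 95% interval from -1.32 to 0.13, adjusted p = 0.515 by limma), and it was -0.28 without Control 1 and -0.38 after median centring.

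The balance between the isotypes also differed from sample to sample. Igha made up 83.4%, 35.0%, 93.3% and 88.4% of the summed TPM of the heavy chain constant genes in Control 1 to 4, and 43.9%, 68.6%, 46.0% and 76.2% in SiglecXII 1 to 4. Ighm made up 9.73%, 58.9%, 4.72% and 7.44% in Control 1 to 4 and 36.4%, 24.9%, 46.0% and 17.1% in SiglecXII 1 to 4. The controls with much Igha were those with a small share of Ighm, whereas Control 2 had more Ighm than Igha. Both shares are parts of the same sum, so a high share of Igha leaves a low share of Ighm. In Control 2 the shares rest on 0.640 TPM of Igha and 1.08 TPM of Ighm. In SiglecXII 3 they rest on 0.401 TPM of Igha and 0.400 TPM of Ighm. The share of Igha was above that of every SiglecXII sample in Control 1, 3 and 4. The lambda chains made up 6.74% to 17.4% of light chain constant TPM in Control samples and 10.3% to 19.6% in SiglecXII samples, and these ranges overlapped.

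Pigr (ENSMUSG00000026417, chr1:130826684-130852249, plus strand) was far more abundant than any B lineage gene, and it lay within 2.14-fold over all samples whereas Igha spanned 74.2-fold on the TPM scale. Its level was 1063, 1670.1, 1736 and 1419 TPM in Control 1 to 4 and 1359, 1427, 869.8 and 812 TPM in SiglecXII 1 to 4. SiglecXII 3 and 4 were below every other sample, whereas SiglecXII 1 and 2 lay within the range of the controls. Means were 10.50 ± 0.32 log2(TPM + 1) in Control and 10.08 ± 0.42 in SiglecXII samples (SD, n = 4 each), with a log2 difference of -0.42 (standard error 0.227, 95% interval from -0.93 to 0.09, adjusted p = 0.515 by limma). The samples SiglecXII 3 and 4 are those with the lowest median gene, and after median centring the difference of Pigr was -0.21.

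Against the mean of the 10 epithelial markers, Pigr was higher by 1.14, 1.36, 1.58 and 1.41 log2 units in Control 1 to 4 and by 1.19, 1.22, 0.84 and 0.84 in SiglecXII 1 to 4. The difference between the group means of this quantity was -0.35, from 1.37 ± 0.18 in Control to 1.02 ± 0.21 in SiglecXII samples (SD, n = 4 each), and the groups overlapped through Control 1. The epithelial markers themselves were at 9.13 ± 0.18 in Control and 9.06 ± 0.21 in SiglecXII samples on the log2(TPM + 1) scale. No test was run on these scores.

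Set against its cargo, Pigr ran from 35.7 to 2609 TPM per TPM of Igha over the samples. The ratio was lowest in Control 1 and highest in Control 2, so the 2 extremes were both controls. The SiglecXII samples lay between 615 and 2169. The 4 samples with the least Igha, Control 2 and SiglecXII 1, 2 and 3, had Pigr between 869.8 and 1670.1 TPM, and the sample with the most Igha, Control 1, had 1063 TPM.

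Follicle B cell genes and plasma cell genes were then set against each other in each sample. The mean of Cd79a, Cd79b and Ms4a1 was 1.31, 0.33, 0.31 and 0.51 log2(TPM + 1) in Control 1 to 4 and 0.51, 0.32, 0.16 and 0.24 in SiglecXII 1 to 4. The mean of Igha, Igkc, Jchain and Mzb1 was 3.88, 0.81, 2.37 and 2.91 in Control 1 to 4 and 1.19, 1.08, 0.57 and 1.29 in SiglecXII 1 to 4. The plasma cell mean thus exceeded the follicle mean in every sample. Not every gene did so, since Mzb1 was below Ms4a1 in every sample but Control 4.

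The follicle mean minus the plasma cell mean was -1.88 ± 0.96 log2 units in Control and -0.73 ± 0.27 in SiglecXII samples (SD, n = 4 each), a difference of 1.15. Control 2, at -0.47, lay among the SiglecXII samples, which ran from -1.06 to -0.41. The follicle genes lay mostly below a TPM of 1, where adding 1 before the logarithm shrinks differences, so the 2 sets are not on an equal scale. Mean TPM in Control and SiglecXII samples was 0.846 and 0.195 for Cd79a, 0.644 and 0.215 for Cd79b, and 0.404 and 0.334 for Ms4a1. For Igha it was 13.1 and 1.07, for Igkc 31.4 and 3.33, for Jchain 4.79 and 1.01, and for Mzb1 0.307 and 0.0961. The difference of 1.15 also depended on the genes used. With Jchain and Mzb1 alone as plasma cell genes it was 0.39, and with longer lists of other genes in place of both the follicle and the plasma cell genes it was -0.026. Of the 22 genes of the longer follicle list, 20 had a mean below a TPM of 1. The longer plasma cell list held genes that colon epithelium also makes, such as Sdc1. The value of -0.026 thus does not measure B lineage cells alone. No test was run on the follicle minus plasma cell score.

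**Figure D3:**
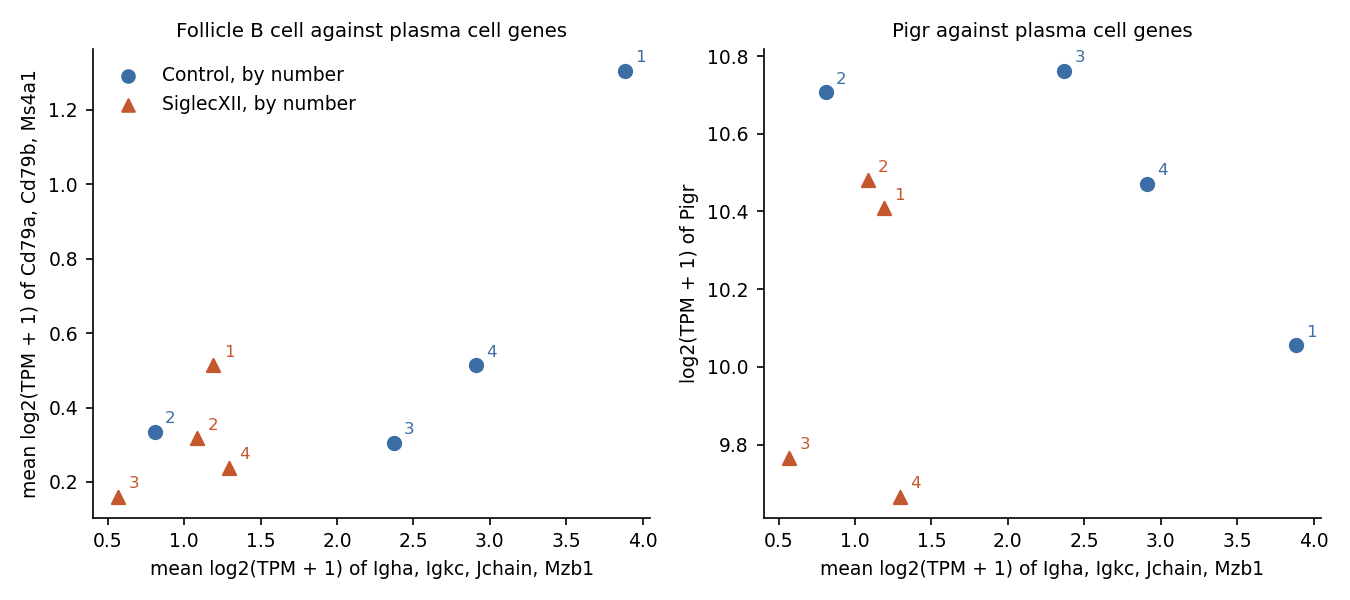
Mean log2(TPM + 1) of the follicle B cell genes Cd79a, Cd79b and Ms4a1 (left, vertical axis) and log2(TPM + 1) of Pigr (right, vertical axis) against the mean log2(TPM + 1) of the plasma cell genes Igha, Igkc, Jchain and Mzb1 (horizontal axes), with each sample as a numbered point (Control blue circles, SiglecXII orange triangles). Control 1 is highest in both B lineage means, Control 3 and 4 are high in the plasma cell mean but not in the follicle mean, and the highest and the lowest Pigr values both lie outside Control 1, the sample highest in plasma cell genes.

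The table also lists 348 variable (V) segments of the immunoglobulin loci, of which each B cell clone uses 1 for each of its chains. In Control 1 to 4, 103, 19, 47 and 48 segments were listed above 0, and in SiglecXII 1 to 4 this was so for 23, 22, 8 and 16. Their summed level was 101, 4.79, 24.2 and 36.3 TPM in Control 1 to 4 and 10.2, 7.96, 2.18 and 4.6 TPM in SiglecXII 1 to 4. Control 1, 3 and 4 were again above every SiglecXII sample and Control 2 was not.

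Of the 348 segments, 134 were above 0 in at least 1 sample, 85 of them in Control samples alone, 6 in SiglecXII samples alone and 43 in both. None was above 0 in every sample, and 1 passed the filter on low values. The number of segments seen moves with the summed level, and depth is unknown, so it gives no separate measure of clonal breadth. The highest segments of the kappa locus were Igkv6-15 (8.54 TPM in Control 1 and listed at 0 in Control 2 and in every SiglecXII sample), Igkv1-117 and Igkv1-110. Those of the heavy chain locus were Ighv1-9, Ighv1-53 and Ighv9-3, and the lambda locus was led by Iglv1, with 5.25 TPM in Control 1 and 0 to 1.44 TPM in SiglecXII samples, followed by Iglv3 and Iglv2.

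**Figure D4:**
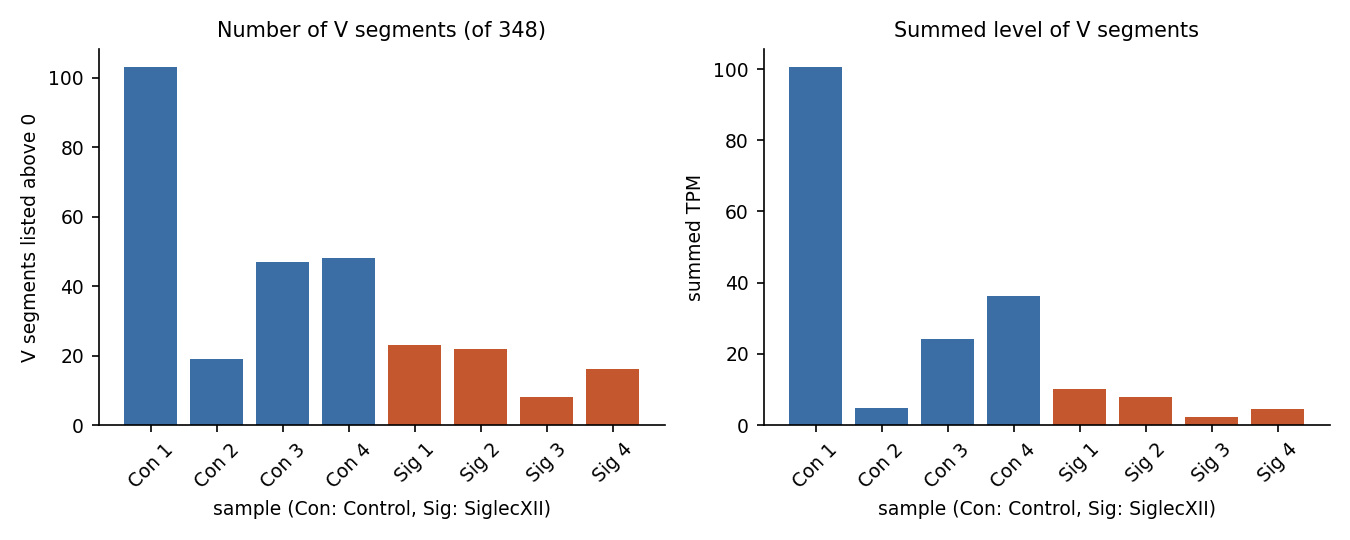
Number of immunoglobulin V segments listed above 0, of 348 in the table (left), and their summed TPM (right), in each of the 4 Control (blue) and 4 SiglecXII (orange) samples. Control 1 has 103 segments and a sum of 101 TPM, and Control 2 lies among the SiglecXII samples in both panels.

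Over the 8 samples, all 36 pairs of the 9 genes were compared, with two-sided exact permutation over all pairings and adjustment over the 36 pairs. By rank, 3 pairs passed at an adjusted p of 0.05, which were the pairs among Igha, Igkc and Jchain. By Pearson's r 14 of the 36 passed, where Control 1 was the highest sample for every gene but Pigr. Since Igha and Igkc fell into 2 separate sets of samples (Control 1, 3 and 4 against the rest), no pooled Pearson coefficient is given for pairs that hold either. The rank coefficients that follow pool the same 2 sets, and the permutation took no account of the groups. Spearman's rho was 1 for Igha and Jchain (exact permutation p = 4.96e-05, adjusted p = 0.00179) and 0.93 for Igkc with each of Igha and Jchain (exact permutation p = 0.00223, adjusted p = 0.0268).

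The 2 chains of the B cell receptor complex also varied together, with Pearson's r of 0.94 (exact permutation p = 0.00270, adjusted p = 0.0243) and rho of 0.88 (exact permutation p = 0.00724, adjusted p = 0.0652) between Cd79a and Cd79b, and r of 0.78 without Control 1 and SiglecXII 1. Ighm followed Cd79b with r of 0.93 (exact permutation p = 0.00456, adjusted p = 0.0268) and rho of 0.79 (exact permutation p = 0.0279, adjusted p = 0.144), and r of 0.74 without Control 1 and SiglecXII 4. Ms4a1 did not follow Cd79a by rank (rho of -0.05, exact permutation p = 0.935, adjusted p = 0.962). Between Cd79a and Igkc, which B cells make too, rho was 0.83 (exact permutation p = 0.0154, adjusted p = 0.111). Pigr followed neither Igha (rho of 0.05, exact permutation p = 0.935, adjusted p = 0.962) nor Cd79a (rho of 0.24, exact permutation p = 0.582, adjusted p = 0.838). These relations were not tested within Control or SiglecXII samples.

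Among all genes tested, those most like the members over the 8 samples were found by Pearson's r, given here as a description. For the standardized mean of the plasma cell genes these were H2-Eb1 (r = 0.95), Coro1a (0.95), Stmn2 (0.94), H2-Aa (0.94) and Cd74 (0.94). H2-Eb1, H2-Aa and Cd74 encode chains of the class II antigen presentation complex, and Coro1a is an actin regulator of leukocytes. These coefficients pool the 2 sets of samples that Igha and Igkc form, and all 5 genes were highest in Control 1. Cd74 was at 81.3, 20.8, 23.0 and 38.2 TPM in Control 1 to 4 and at 19.0, 23.4, 11.8 and 22.6 TPM in SiglecXII 1 to 4.

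For the follicle genes they were Ccdc85b (r = 0.98), Lce3b (0.98), Rpl24 (0.98), Rps15a (0.97) and Catsperz (0.97), and all 5 were highest in Control 1. Lce3b, a gene of the cornified envelope of stratified epithelium, was at 424 TPM in Control 1 and between 2.78 and 14.3 TPM in the other samples. Its part in the high B lineage values of that sample was not tested. For Pigr they were 5730455P16Rik, Cbx5, Rpap1, Gpatch8 and Myo5b, all with r of 0.99 or above, and Myo5b is a motor of apical recycling in epithelial cells. Like Pigr, all 5 were lowest in SiglecXII 3 and 4, and Myo5b was there at 23.5 and 22.6 TPM against 26.1 to 43.3 TPM in the other samples.

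Longer lists of genes, chosen for this pathway but with earlier results of these data known, described the surroundings of the members. Of 22 other follicle B cell genes, 17 were below a TPM of 1 in every sample and 2 were tested. These were Spib, a transcription factor of B cells and of some epithelial cells, at -0.39, and Cd55, a complement inhibitor that epithelium also makes, at 0.23 (adjusted p = 0.527 and 0.584 by limma). Pax5, a transcription factor that defines B cells, was at most 0.211 TPM.

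Of 16 genes of B cell receptor signaling, 9 were tested, with a median log2 difference of -0.12 beside -0.15 for all genes. Without adjustment 3 were lower and none was higher, beside 7.67% lower and 1.19% higher of all genes. The 3 were the phospholipase Plcg2 at -0.51, the exchange factor Vav1 at -0.43 and the coreceptor subunit Cd81 at -0.38 (adjusted p = 0.515 by limma for each). The groups did not overlap for Plcg2, which was at 2.0 to 2.84 TPM in Control and 0.682 to 1.94 TPM in SiglecXII samples. Non-overlap in that direction was seen in 4.06% of all genes, and these signaling genes are made by other cells too. After median centring Plcg2 was at -0.30.

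Of 13 germinal centre genes, 4 were tested, none was past the unadjusted limit, and the median was 0.01. The highest were Ung, a uracil glycosylase used in antibody diversification, at -0.28, and Fas, a death receptor, at 0.10. Of 9 further immunoglobulin constant genes none was tested, and the highest, the lambda chains Iglc1 and Iglc2, reached 4.89 and 1.72 TPM in Control 1 and at most 0.647 and 0.425 TPM in SiglecXII samples.

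Of 18 other plasma cell genes, 12 were tested, 6 of these were below 0, and the median was 0.00. Only Tent5c, a poly(A) polymerase that stabilizes antibody mRNA, was past the unadjusted limit, at -0.65 (adjusted p = 0.515 by limma). Sdc1, the plasma cell marker CD138 that colon epithelium also makes, was at 126 to 281 TPM with a difference of -0.36, and Sec11c, a signal peptidase subunit, was at 0.05. Sdc1, Sec11c, Xbp1 and Txndc5 of this list were at 83.9 TPM or more in every sample, whereas Igkc was at most 73.9 TPM. The median of this list thus does not measure plasma cells alone. Tnfrsf17, the survival receptor BCMA that plasma cells carry, was listed at 0 in 6 of the 8 samples. Irf4, a transcription factor of plasma cells, was at most 0.0976 TPM in any sample, too low to be tested or compared.

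Of 19 genes of class switching to IgA and of plasma cell survival, 8 were tested, and their median was -0.16. At the unadjusted limit 1 of these was lower, beside 7.67% of all genes. Tgfb1, the cytokine that drives the switch to IgA, was at 7.98, 8.22, 6.84 and 7.29 TPM in Control 1 to 4 and at 6.0, 4.85, 4.19 and 2.72 TPM in SiglecXII 1 to 4. For Tgfb1 the groups did not overlap, as was so in that direction for 4.06% of all genes. Its log2 difference was -0.69 (standard error 0.194, unadjusted p = 0.00600, adjusted p = 0.515 by limma) and -0.48 after median centring.

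Tnfsf13, the survival factor APRIL, was at 29.5 to 36.4 TPM in Control and 29.5 to 33.5 TPM in SiglecXII samples, a log2 difference of -0.06 that turned to 0.16 with median centring and to 0.08 with quantile normalization. Aldh1a1, which makes retinoic acid, was at -0.20, and at 0.01 after median centring. Of 11 genes of homing, 2 were tested. Ccl28, the epithelial chemokine that draws IgA plasma cells to the colon, was at 60.2 to 83.9 TPM in Control and 64.9 to 87.1 TPM in SiglecXII samples, a difference of -0.02 that turned to 0.19 with median centring and to 0.07 with quantile normalization. Ccl25, the homing chemokine of the small intestine, was at 0.06. Of 16 genes of follicle organization, 5 were tested with a median of 0.01, among them Ltbr, the lymphotoxin receptor, at 0.01.

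Of 16 upstream regulators of Pigr, 15 were tested, 14 had a difference below 0 beside 78.1% of all genes, and the median was -0.14. Without adjustment 2 were lower, beside 7.67% of all genes. The 2 were Il4ra, the interleukin 4 receptor, at -0.58, and Nfkb1, an NF-kappaB subunit, at -0.52 (adjusted p = 0.515 by limma for both). None of the genes on the lists above or below passed at an adjusted p of 0.05 by limma.

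Markers of other cell types are given beside these values. The summed level of 4 leukocyte markers was 4.97 to 10.6 TPM in Control and 3.43 to 3.94 TPM in SiglecXII samples, with no overlap. Among single genes, 4.06% of all tested showed no overlap in that direction. Both of those tested, Coro1a at -0.62 and Laptm5 at -0.59 (adjusted p = 0.515 by limma for both), were lower without adjustment, beside 7.67% of all genes. After median centring Coro1a and Laptm5 were at -0.41 and -0.38. Of 6 macrophage and dendritic cell markers, 3 were tested with a median of -0.59, and the complement genes C1qb and C1qa were at -0.84 and -0.59, the first of them lower without adjustment. T cell markers were low, with 1 of 8 tested, Lck at -0.10 (0.11 with median centring, 0.09 with quantile normalization), and Cd3g below 0.7 TPM.

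All 6 smooth muscle markers were below 0 with a median of -0.69, and Myh11 at -0.78, Des at -0.70 and Cnn1 at -0.75 were lower without adjustment. Of all genes, 78.1% were below 0 and 7.67% were lower without adjustment. The summed smooth muscle level was 623 to 1003 TPM in Control and 303 to 651 TPM in SiglecXII samples, and these ranges overlapped. Des was at 69.0 to 104 TPM in Control and 31.7 to 65.3 TPM in SiglecXII samples, and Cnn1 at 70.1 to 113 and 29.9 to 68.3 TPM. For these single genes the groups did not overlap, as for 4.06% of all genes in that direction, whereas the other smooth muscle markers overlapped. The 10 epithelial markers had a median of -0.07 with none past the limit, among them the keratins Krt8 at 0.07 (-0.04 after quantile normalization) and Krt19 at -0.10 (0.11 after median centring). The 5 goblet cell markers had a median of 0.00, with Zg16, a mucus lectin, at 0.31 and Tff3, a trefoil peptide, at 0.20. The part of tissue composition in the values of Igha, Igkc and Jchain was not tested. Control 2, which was low in these 3 genes, had the lowest smooth muscle sum of the controls, 623 TPM, and a leukocyte sum of 6.21 TPM, between those of Control 3 and Control 4.

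**Figure D5:**
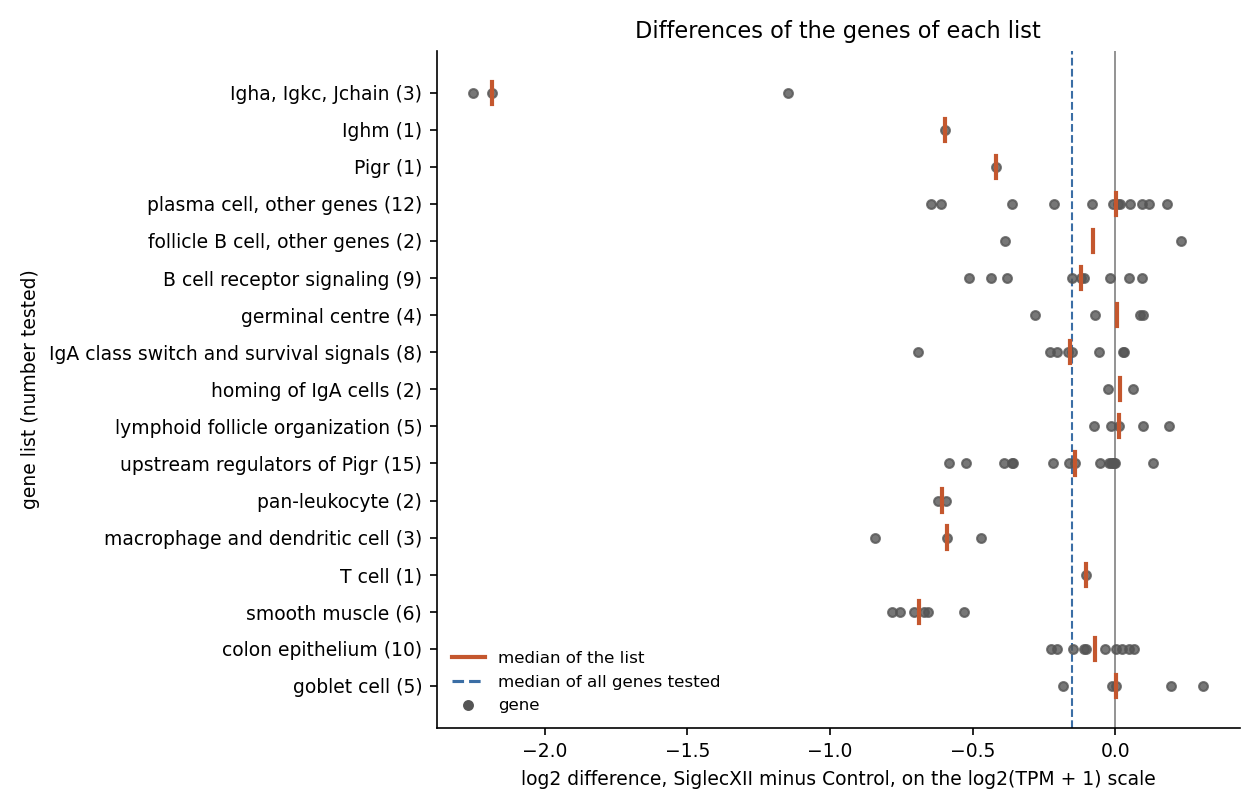
Log2 difference (SiglecXII minus Control, horizontal axis) of every tested gene of each list (grey points), with the median of the list (orange bar) and the median of all 13164 genes tested, -0.15 (dashed blue line), where the number after a list's name is that of its genes tested. Igha, Igkc and Jchain lie furthest from the line, and Ighm and the medians of the leukocyte, macrophage and smooth muscle markers lie to its left.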

How the data were processed

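RNA-Seq of the distal colon of 4 Control and 4 SiglecXII samples was used. Per the labels, libraries were read as pairs of 100 bases, and the submitters' processing notes name kallisto 0.45.0 and the build GRCm38, whereas the Methods name another version and a human reference. The authors deposited log2 values, log2(TPM + 1), with no adjustment between samples. Of the gene identifiers, 98.5% are in GENCODE M21, and 718 rows repeat a symbol. TPM keeps no depth, so no interval or floor was computed from counts.

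The 13164 genes that reached a TPM of 1 in 4 or more samples were tested with limma 3.58.1 (R 4.3.3), using lmFit, a trended eBayes and Benjamini-Hochberg adjustment over all of them, after a check on simulated data. The authors' counts were not used here. Exact permutation tests and figures used Python 3.11.15, scipy 1.17.1, pandas 2.3.3 and matplotlib 3.10.9. Windows of 31 bases were compared between transcripts to find genes that could share reads.

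The members and lists were chosen with earlier results of these data known. Named genes are the members, list genes at an unadjusted p of 0.05 or less (or the 2 highest of a list with fewer than 2 of these), the 5 genes most like each set of members, and the 3 highest V segments per locus. Some items the rule names are not reported here. Pax5, Tnfrsf17, Irf4, Xbp1 and Txndc5 were named after their values were seen. Alternatives were median centring, quantile normalization, a pseudocount of 0.1, a TPM filter of 5, no filter, array weights, no trend, immunoglobulin rows left out of the total, the sample number as a block, other gene sets for the scores, and each sample left out in turn.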

Additional observations from a re-analysis of the deposited data

Results flagged for a closer look

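In 3 of 82 groups of 4 samples examined, 1 sample lay far from the other samples of its group by Dixon's test, where chance would give 4.1. Igha in SiglecXII 3 was at 0.49 log2(TPM + 1) while the other SiglecXII samples were at 1.18 to 1.21, a gap of 0.954 of the group's range. SiglecXII 3 was also the lowest SiglecXII sample for Igkc, Jchain, Cd79a and Cd79b and held the fewest V segments.

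Ltbr, the lymphotoxin receptor of lymphoid tissue organization, was at 6.38 log2(TPM + 1) in Control 1 and at 6.50 to 6.53 in the other controls, a gap of 0.839 of the range. Des, a smooth muscle filament, was at 5.03 in SiglecXII 4 and at 5.88 to 6.05 in the other SiglecXII samples, a gap of 0.832 of the range.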

How the results depend on the processing

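None of the 5 genes tested passed at an adjusted p of 0.05 by limma or changed direction in any setting run in which it was fitted, and none of Mzb1, Cd79a, Cd79b and Ms4a1 passed in the 1 fit that held them, with no filter. Over the alternatives the log2 difference ran from -3.02 to -1.61 for Igha (adjusted p from 0.0773 to 0.905), from -3.14 to -1.60 for Igkc (0.270 to 0.905), from -1.63 to -0.63 for Jchain (0.322 to 0.905), from -1.12 to -0.28 for Ighm (0.285 to 0.905) and from -0.57 to -0.17 for Pigr (0.281 to 0.905, all by limma). The number of all genes passing, 5, was 3 with a TPM filter of 5, 3 with none, 18 with array weights and 2 to 6 with 1 sample left out (3, 2 and 3 without SiglecXII 1, 2 and 4), and the cause was not tested. With longer lists, which do not measure B lineage cells alone, the follicle minus plasma cell difference of 1.15 was -0.026. With Jchain and Mzb1 alone it was 0.39. Leaving out 1 sample gave 0.92 to 1.62, and gave -0.43 to -0.28 for Pigr minus epithelium.

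Same-numbered samples did not deviate together (correlations of -0.16, -0.20, 0.10 and -0.00, and no sample was most like its own number). With the number as a block, 0 members and 4 genes passed, and Igha had an adjusted p of 0.629 by limma.

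Signs turned for genes near 0, none of them past the test. Array weights gave -0.0016 for Cd55, -0.14 for Fas, 0.14 for Ung, 0.0039 for Aldh1a1 and 0.070 for Krt19. Median centring gave 0.16 for Tnfsf13, 0.0100 for Aldh1a1, 0.19 for Ccl28, 0.11 for Lck and 0.11 for Krt19. Quantile normalization gave 0.081 for Tnfsf13, 0.074 for Ccl28, 0.089 for Lck and -0.037 for Krt8. With 1 sample left out, values ran from -0.12 to 0.033 for Ccl28, from -0.054 to 0.15 for Ccl25, from -0.045 to 0.058 for Ltbr, from -0.036 to 0.16 for Krt8 and from -0.20 to 0.051 for Krt19. With a TPM filter of 5, genes below it gave no value. TPM carries no depth, so whether the low levels of Cd79a, Cd79b, Ms4a1 and Mzb1 could show a difference cannot be judged.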
